A study of Mus musculus with 26 samples.

Results

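TCRTg101 are mouse CD8+ T cells whose transgenic receptor recognizes C1498, a transplantable myeloid leukemia line of C57BL/6 mice. The data described here come from TCRTg101 recovered from the livers of leukemia-bearing mice and compare the late time point (days 16 and 18) with the mid time point (days 13 and 14). Libraries were chosen by their labels alone, as liver samples of leukemia-bearing mice on those days, which gave 2 late and 3 mid libraries, 5 of the 15 libraries of the series (8 of its 26 sequencing runs). Runs of one library were summed and counted once. All 5 libraries were from C57BL/6 mice that the labels give as 6 week old and wild type. The transferred cells came from spleens of Tg101 mice, which carry the rearranged receptor (Vα10 and Vβ1) on a Rag2-/- background, which keeps other receptors from being rearranged. They were labelled with CellTrace Violet, transferred into hosts that kept their own lymphocytes, and the hosts received C1498 intravenously on the next day. The 3 control libraries to which levels are compared came from spleens, 2 of naive Tg101 cells at day 0 and 1 of cells parked for 18 days in mice without leukemia, so control and liver libraries also differ in organ. Sorting was by flow cytometry, and the sources used here do not state whether mid and late cells were selected on division. Nothing in the labels says how many mice were pooled in a library, so p-values measure only the spread between libraries. That spread was estimated over 11 libraries, which were the 5 liver and 3 control libraries, 2 early liver libraries of leukemia-bearing mice at day 7 and 1 spleen library of undivided (CTVhi) cells from leukemia-bearing mice at day 18. Strain, age and genotype labels were the same for these. Each SE and p below therefore also holds the difference between the 2 early libraries, unless mid and late libraries only are named.

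The titles split the libraries in 2 series, TG and XC, which were taken as the batches. The study sequenced its libraries in 2 batches, and the sources used here do not say which library was in which. In the TG series there was 1 mid library (day 13) and 1 late library (day 18). The XC series held 2 mid libraries (days 13 and 14) and 1 late library (day 16). Day and library could therefore not be told apart within a series. Values are given below as TMM-scaled CPM, which are counts of a gene relative to the library's total multiplied by its TMM factor, in the order TG mid, XC mid day 13, XC mid day 14, TG late and XC late. In this order the factors were 0.843, 1.016, 0.980, 0.754 and 0.984, so scaling raised the TG values, most in the TG late library.

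CD8+ T cells that see antigen without clearing it can pass into exhaustion, a state in which inhibitory receptors such as PD-1 stay on the surface and cytokine production is lost step by step, with IL-2 and TNF generally lost before IFN-γ. Transcription factors of the NR4A and TOX families are tied to this state, and a TCF-1-expressing reservoir with stem-like properties can persist beside the cells that have differentiated furthest. The question that late against mid libraries address is what still differs in cells of the same clone and the same organ once the first weeks of leukemia have passed.

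Each of the 5 libraries held between 28413340 and 71358287 estimated counts. The receptor's own Vβ segment, Trbv5, was at 8376, 6446 and 7205 CPM in the mid libraries and 12888 and 7533 CPM in the late libraries, and Cd4 stayed under 1 CPM in each of them, with Cd8a at 1001, 770.4 and 861 CPM in the mid libraries and 1521 and 854 CPM in the late libraries. Of the other CD4 and regulatory T cell markers, Foxp3 (0.723, 0.665 and 1.91 CPM in mid, 2.13 and 2.88 CPM in late) was higher within both series. So was Zbtb7b (4.18, 3.71 and 6.49 CPM in mid, 8.64 and 7.95 CPM in late). Cd40lg had no shared direction. Trdc, the constant gene of the receptor's δ chain, was in the same list but does not mark CD4 or regulatory T cells. It was lower (87, 140 and 67 CPM in mid, 80.9 and 61.1 CPM in late) and at 180 to 260 CPM in controls. In bulk RNA, fewer cells of a type and less RNA per cell cannot be told apart. Messages of hepatocytes were found in every library and moved with the comparison, since the sum over 16 hepatocyte markers was 326, 34 and 5.93 CPM in the mid libraries and 557 and 153 CPM in the late libraries, and 15 of the 16 were higher in late than in each mid library of their series (24.5% of all tested genes). Alb, the albumin gene, was at 83.1, 8.19 and 0.882 CPM in the mid libraries and 126 and 23.6 CPM in the late libraries. Summed macrophage and monocyte markers were 66.6, 18.2 and 25.6 CPM in the mid libraries and 62.7 and 34 CPM in the late libraries, with 11 of 16 higher in late within both series (24.5% of all tested genes) although the TG sum was not, among them Lyz2 at 4.99, 0.49 and 2.19 CPM in the mid libraries and 20.7 and 8.42 CPM in the late libraries. Others of the 11 rested on few counts, and Fcgr1 and Cd14 stayed under 1 CPM in each of the 5 libraries. All 11 neutrophil markers were under 1 CPM in the 5 libraries. The B cell list was almost entirely Ighm, at 624, 458 and 462 CPM in the mid libraries and 751 and 448 CPM in the late libraries, with Pax5 at or near 0. Among the controls, those of day 0 held more myeloid and erythroid messages than that of day 18. Summed macrophage and monocyte markers were 1404 (TG) and 188 (XC) CPM at day 0 and 15.9 CPM at day 18. Dendritic cell markers summed to 1800 and 1587 CPM against 37.9 CPM, and erythroid markers to 5170.5 and 19791.5 CPM against 134 CPM. The part of other cells in the differences below was not tested.

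By edgeR's quasi-likelihood F test, no gene separated late from mid libraries once p-values were adjusted after Benjamini and Hochberg, with a threshold of 0.05 (0 of 14600 genes, 0.0%, smallest adjusted p = 0.449). At an unadjusted p under 0.05 there were 386 genes higher (2.64%) and 394 genes lower (2.7%) in late libraries. With the same terms DESeq2 called 23 genes higher (0.158%) and 9 lower (0.0616%). The median log2 difference over all tested genes was 0.01. Because no call was made by the main test, genes below are described as higher or lower with their values, their unadjusted p and their behaviour within each series. A gene was counted as higher (or lower) within both series when the late library lay above (or below) every mid library of its own series in log2 CPM, which held for 3570 genes (24.5%) and 2988 genes (20.5%). A difference of at least 2-fold against every mid library of the series was seen for 186 higher (1.27%) and 114 lower genes (0.781%). Both late libraries lay above all 3 mid libraries for 1127 genes (7.72%) and below them for 1027 genes (7.03%).

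Genes are not independent replicates, and as a description over all 14600 the TG difference and the mean XC difference had a Pearson r of 0.305 and a Spearman rho of 0.306, and 60.9% of genes had the same sign in both. These differences come from separate libraries. Over the 9120 genes with a mean log2 CPM of at least 3 the Pearson r was 0.426. With the XC mid library of day 13 alone as the reference, r over all genes was 0.339, and with that of day 14 alone it was 0.199. When the late minus mid difference was itself compared between the series, edgeR called 1 of the 14600 genes (0.00685%) at the same threshold, the pseudogene Morf4l1-ps1, whose values are given in the closing section.

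**Figure D1:**
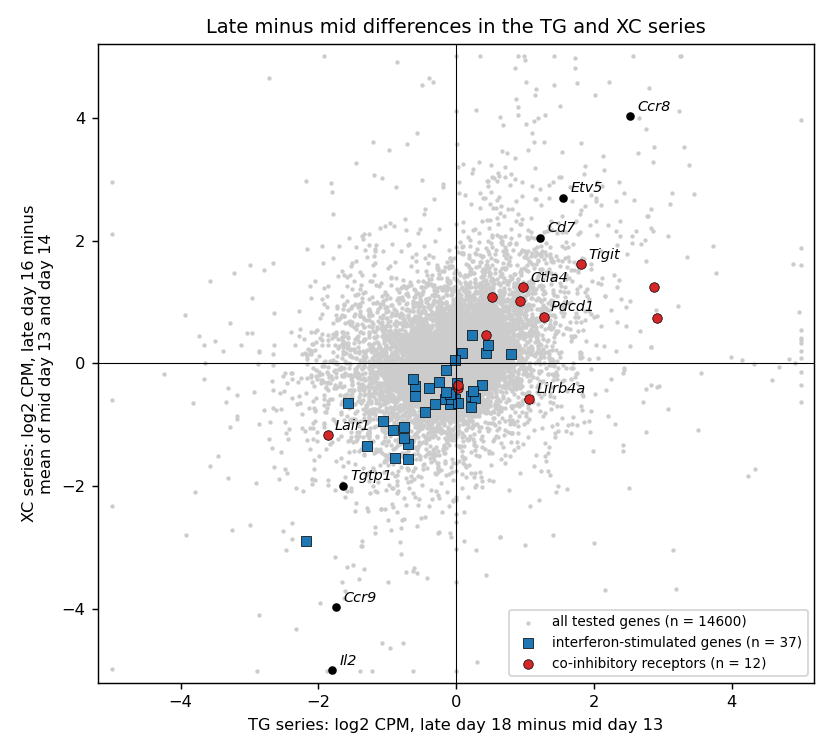
Late minus mid difference of each of 14600 tested genes in the TG series (x axis, day 18 minus day 13) and in the XC series (y axis, day 16 minus the mean of days 13 and 14), in log2 CPM, with values beyond 5 drawn at the edge. Red circles are the 12 co-inhibitory receptors and blue squares the 37 interferon-stimulated genes, and black points are other labelled genes. Most red circles lie above 0 on both axes and most blue squares below 0 on both.

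Of the genes with an unadjusted p under 0.05 and a mean log2 CPM of at least 3, 203 were higher and 160 lower in late libraries within both series, and the 15 with the largest difference in each direction are described here. They were picked by size of difference, so their sizes are a description. Highest was Ccr8 (chr9:120092114-120094906, plus strand, GRCm38), a chemokine receptor found on regulatory and tissue T cells, at 6.0 (TG), 1.85 and 10 (XC) CPM in the mid libraries and 34.9 (TG) and 71.1 (XC) CPM in the late libraries. Both late libraries lay above all mid libraries, and the fitted log2 difference was 3.15 ± 0.92 (SE, unadjusted p = 0.0099, adjusted p = 0.91 by edgeR). Controls held 0 to 0.0319 CPM. Penk, which encodes the precursor of the enkephalin opioid peptides, was at 3.95 (TG), 5.04 and 4.09 (XC) CPM in the mid libraries and 21.7 (TG) and 31.5 (XC) CPM in the late libraries. Its mid levels were close to one another and its late levels well above them, with a log2 difference of 2.66 ± 1.05. Etv5, an ETS-family transcription factor, was at 6.27 (TG), 8.85 and 8.61 (XC) CPM in the mid libraries and 18.5 (TG) and 56.8 (XC) CPM in the late libraries, a log2 difference of 2.24 ± 0.43 (unadjusted p = 0.000578 by edgeR), and DESeq2 called it with an adjusted p of 0.00139. The late XC library stood furthest from the rest.

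Capn3, which encodes the calcium-dependent protease calpain-3, was at 7.44 (TG), 2.17 and 4.06 (XC) CPM in the mid libraries and 18 (TG) and 36.7 (XC) CPM in the late libraries and was also called by DESeq2 (adjusted p = 0.00186). Among surface receptors, Tigit was the co-inhibitory member of the 15 and is described with its group. Cd7, an immunoglobulin-family receptor of T and NK cells, was at 37.7 (TG), 43.3 and 21 (XC) CPM in the mid libraries and 87.7 (TG) and 125 (XC) CPM in the late libraries, with a log2 difference of 1.63 ± 0.44. For Cd7 the mid libraries lay below the controls (61.6 to 176 CPM) and the late libraries lay within their range. Ccrl2, an atypical receptor that binds chemerin, was at 3.38, 6.33 and 8.12 CPM in the mid libraries and 10.9 and 18.3 CPM in the late libraries, and Fcrl1, an Fc-receptor-like protein, at 13.1, 3.46 and 7.06 CPM in the mid libraries and 21.5 and 18.5 CPM in the late libraries. Both genes had every late value above every mid value.

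Tesc, which encodes the calcium-binding protein tescalcin, was at 13.8, 5.81 and 8.19 CPM in the mid libraries and 26.4 and 19.3 CPM in the late libraries. Cxxc5, a CXXC zinc-finger protein, was at 28.8, 35 and 30.6 CPM in the mid libraries and 59.8 and 80.7 CPM in the late libraries, with a small spread within groups. Spock2, which encodes the proteoglycan testican-2, was at 4.79, 9.27 and 18.2 CPM in the mid libraries and 9.87 and 53.1 CPM in the late libraries. Here the groups overlapped, because the TG late library lay below the XC mid library of day 14. The remaining members had log2 differences of 1.82 (Hist1h2bc, a histone H2B gene), 1.64 (Adssl1, an adenylosuccinate synthase), 1.48 (1700019D03Rik) and 1.53 (Gm9864, annotated as a pseudogene). For Gm9864, 91.5% of its 31-base words also occur in transcripts of other genes, and for Hist1h2bc 33.5%, so kallisto's division of reads adds an error to both that the test does not hold. In 14 of the 15 genes both late libraries lay above all mid libraries, against 7.72% of all genes, which the way of choosing them favours.

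Lowest was Gm10160 (chr7:81855533-81855794, minus strand), annotated as protein coding without a gene name, at 39.5 (TG), 39.4 and 13.2 (XC) CPM in the mid libraries and 5.29 (TG) and 0.356 (XC) CPM in the late libraries, and 42.1% of its 31-base words are shared with other genes. Ccr9, the receptor for CCL25 that guides T cells to the small intestine, was at 16.1 (TG), 39 and 13.5 (XC) CPM in the mid libraries and 4.81 (TG) and 1.43 (XC) CPM in the late libraries. Its late levels lay below all mid levels and its mid levels far below the controls (173 to 218 CPM), with a log2 difference of -2.95 ± 0.96 from mid to late (unadjusted p = 0.0169, adjusted p = 0.91 by edgeR, and 0.0136 by DESeq2). Dtx1, which encodes the E3 ligase Deltex1, a target of Notch signalling, was at 59.7 (TG), 110.0 and 50.6 (XC) CPM in the mid libraries and 21.1 (TG) and 7.65 (XC) CPM in the late libraries, with 176 to 489.7 CPM in controls. Klf3, a Krüppel-like transcriptional repressor, was at 157 (TG), 211 and 66.9 (XC) CPM in the mid libraries and 44.1 (TG) and 48.1 (XC) CPM in the late libraries against 494 to 604 CPM in controls. The XC mid library of day 14 was the closest to the late levels, and that of day 13 was the highest of the 5.

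Arl4c, a small GTPase of the ARF-like family, was at 38.8, 36.7 and 16.7 CPM in the mid libraries and 10.9 and 11.4 CPM in the late libraries, with 106 to 134 CPM in controls. Galnt10, a glycosyltransferase that starts O-glycans, was at 35.1, 83.3 and 35.5 CPM in the mid libraries and 18.6 and 10.8 CPM in the late libraries. In 10 of these 15 genes all 3 controls lay above all 3 mid libraries, and in 1 (Gadd45b) all controls lay below. Of the 15 highest genes, 6 had all controls below all mid libraries and 2 had all controls above them. The shares of all tested genes with these orders were not counted, so these counts describe the chosen genes only. Eml5, a microtubule-binding protein, was at 12.3, 33.8 and 17.8 CPM in the mid libraries and 5.04 and 9.29 CPM in the late libraries and Baiap3, a C2-domain protein of vesicle release, at 37, 58 and 40.8 CPM in the mid libraries and 12.7 and 20.4 CPM in the late libraries. DESeq2 called both (adjusted p = 0.0335 and 0.00184). Gadd45b, a stress-induced growth-arrest gene, was at 58, 80.6 and 49.1 CPM in the mid libraries and 34.7 and 22.8 CPM in the late libraries, against 17.7 to 38.4 CPM in controls.

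Ifit3, Mx1 and Ly6a, which are in the list of interferon-stimulated genes, and Tgtp1 and Ifi208, which are not, were also among the 15 lowest genes and are described with that list. Gm14681, annotated as a processed pseudogene, had a log2 difference of -1.57 and shares 89.8% of its 31-base words with further transcripts, chiefly Npm1. In 13 of the 15 genes both late libraries lay below all mid libraries (7.03% of all genes). Among further genes named here, the share of 31-base words found in other genes was 32.5% for 1700019D03Rik, 30.3% for Etv5, 22.6% for Ifng and 21.8% for Ccr9.

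**Figure D2:**
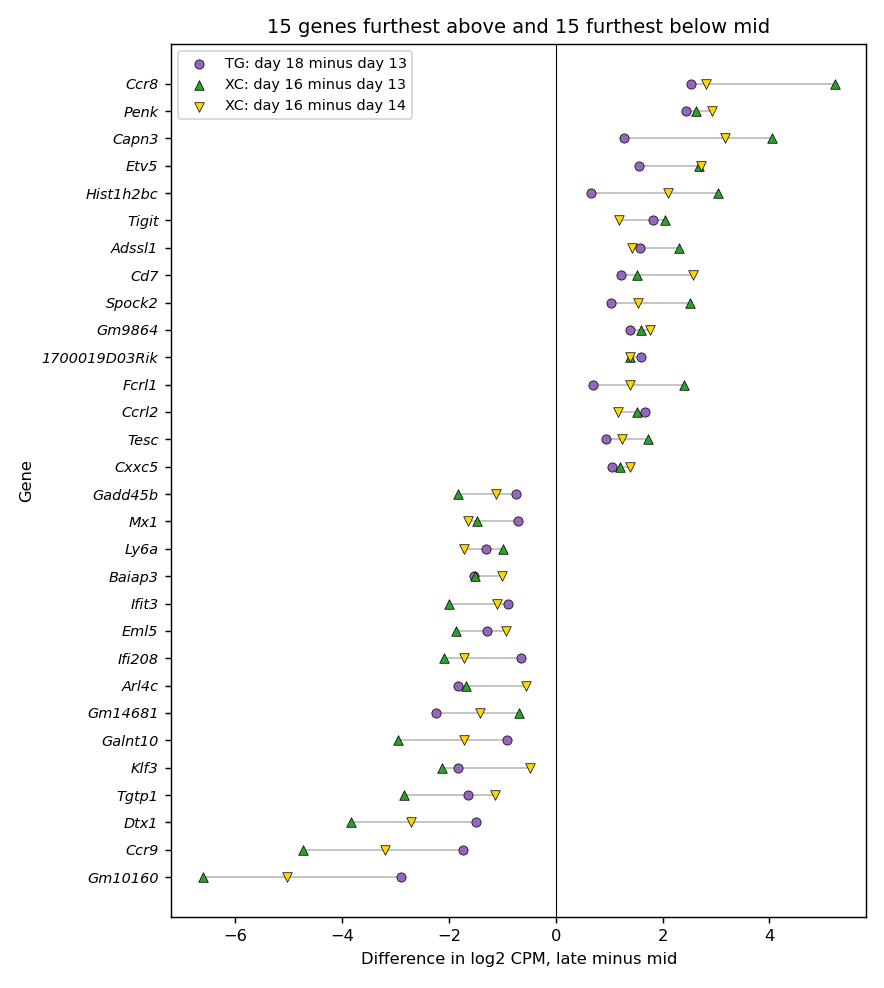
Differences in log2 CPM (x axis) between the late library and each mid library of its series for the 15 highest and 15 lowest genes (y axis). Circles are the TG series (day 18 minus day 13) and triangles the XC series (day 16 minus day 13, and day 16 minus day 14). All 3 differences lie on one side of 0 for each gene, as the choice of genes required, and they spread most for Ccr8, Capn3, Ccr9 and Gm10160.

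Co-inhibitory receptors damp signalling from the T cell receptor and are the surface hallmark of exhaustion. Of the 12 members tested, 8 were higher and 1 was lower in late libraries within both series (24.5% and 20.5% of all genes), and the median log2 difference was 0.77 against 0.01 over all genes. The median was 0.95 in the TG series and 0.87 and 0.40 in the XC series, and in the fit without the XC late library it was 0.45. None passed the adjusted threshold by edgeR, and 2 were higher and 1 lower at an unadjusted p under 0.05. The counts were the same when either XC mid library was left out. Pdcd1, which encodes PD-1, was at 389 (TG), 227 and 400.0 (XC) CPM in the mid libraries and 937 (TG) and 509 (XC) CPM in the late libraries. Both late libraries exceeded all mid libraries, at 723 ± 302 CPM (SD, n = 2) in late against 339 ± 96.7 CPM (SD, n = 3) in mid libraries, and the log2 difference was 1.05 ± 1.20 (SE, unadjusted p = 0.406 by edgeR). This error also holds the spread of the 2 early libraries, at 149.5 and 2.57 CPM. With mid and late libraries only, the log2 difference was 0.95 and the adjusted p was 0.334 by edgeR. Tigit, a receptor for CD155, was at 59.3 (TG), 20.6 and 37.5 (XC) CPM in the mid libraries and 209 (TG) and 85.2 (XC) CPM in the late libraries. It lay higher in late libraries in both series, by 3.14-fold in the fit (log2 1.65 ± 0.63, unadjusted p = 0.032, adjusted p = 0.91 by edgeR).

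Lag3, which binds MHC class II and other ligands, was at 52.2 (TG), 84.8 and 71.3 (XC) CPM in the mid libraries and 99.4 (TG) and 157 (XC) CPM in the late libraries, and Cd200r1, the receptor for CD200, at 2.12 (TG), 4.13 and 11.6 (XC) CPM in the mid libraries and 15.7 (TG) and 16.4 (XC) CPM in the late libraries. For both, late libraries lay above all mid libraries, and the log2 difference of Cd200r1 was 1.57 ± 0.63 (unadjusted p = 0.0346 by edgeR) and that of Lag3 0.89 ± 1.12 (unadjusted p = 0.448 by edgeR). Lag3 was at 24.3 and 0.459 CPM in the early libraries, and with mid and late libraries only its adjusted p was 0.0986 by edgeR. Ctla4, which competes with CD28 for CD80 and CD86, was at 66 (TG), 101 and 144 (XC) CPM in the mid libraries and 129 (TG) and 284 (XC) CPM in the late libraries. The series kept the direction while the groups overlapped, and the XC late library was the highest. In the fit without it the log2 difference of Ctla4 was -0.24, although the difference within the TG series was 0.97. The difference between series in that fit comes from the control and mid libraries. Pvrig was at 0.622, 1.57 and 1.87 CPM in the mid libraries and 5.02 and 2.91 CPM in the late libraries, low throughout.

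Cd160 was at 286, 130.3 and 133 CPM in the mid libraries and 387 and 181 CPM in the late libraries and Havcr2, which encodes TIM-3, at 26.4, 9.38 and 40.1 CPM in the mid libraries and 38 and 40.9 CPM in the late libraries, both higher within each series and overlapping between groups. Btla, Vsir (VISTA) and Lilrb4a did not keep one direction, with log2 differences of -0.25, -0.22 and -0.47, and Lilrb4a shares 56.1% of its 31-base words with other genes. Lair1, an inhibitory receptor for collagen, went the other way at 20.1 (TG), 5.0 and 5.72 (XC) CPM in the mid libraries and 5.5 (TG) and 2.36 (XC) CPM in the late libraries. It was lower in both series, by a log2 difference of -1.48 ± 0.30 (unadjusted p = 0.000898, adjusted p = 0.91 by edgeR, and 0.00346 by DESeq2). The groups overlapped because the TG late library lay between the XC mid libraries.

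**Figure D3:**
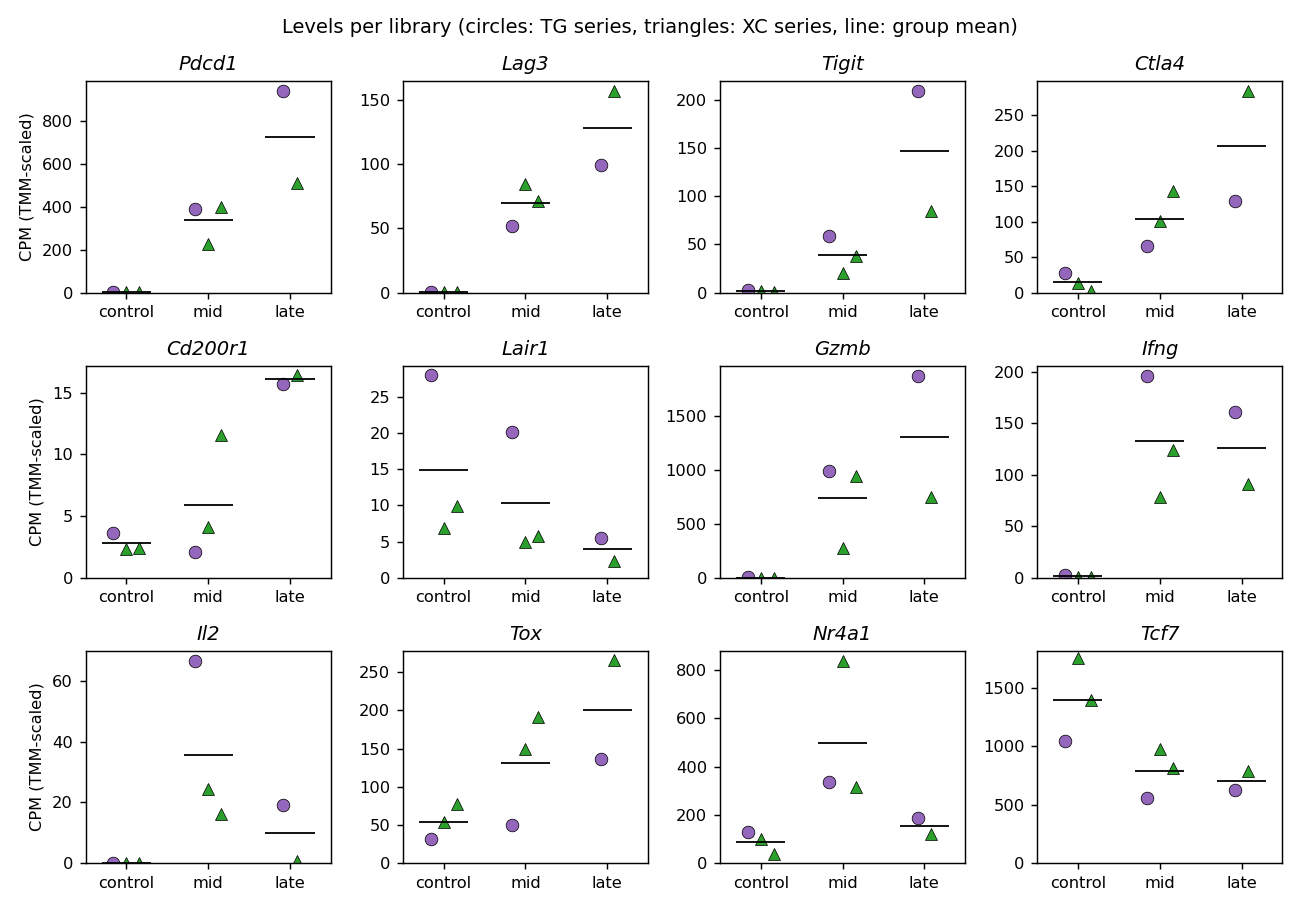
CPM (y axis, starting at 0, each gene on its own scale) of 12 genes in each control, mid and late library (x axis). Circles are libraries of the TG series, triangles those of the XC series, and lines are group means of 3 control, 3 mid and 2 late libraries. Pdcd1, Lag3, Tigit and Cd200r1 have both late points above all mid points, Nr4a1 has both below, and Tcf7, Ifng and Gzmb overlap.

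Effector genes, which encode cytolytic proteins and cytokines, split. Of 16 tested, 5 were higher and 6 lower in late libraries within both series (24.5% and 20.5% of all genes), and the median log2 difference was 0.22 in the fit but -0.09 in the TG series and 0.32 and -0.28 in the XC series. It was 0.12 without the TG late library and -0.11 without the XC late library. None passed the adjusted threshold by edgeR, and 1 (Gzmm) was lower at an unadjusted p under 0.05. Il2, the growth factor of activated T cells, was at 66.5 (TG), 24.3 and 16.2 (XC) CPM in the mid libraries and 19.1 (TG) and 0.576 (XC) CPM in the late libraries. Each late library was below the mid libraries of its series, and the TG late library lay between the XC mid libraries (log2 -3.38 ± 1.56, unadjusted p = 0.0647 by edgeR). Lta, which encodes lymphotoxin-α, was at 215 (TG), 100.3 and 56.4 (XC) CPM in the mid libraries and 87.1 (TG) and 14.7 (XC) CPM in the late libraries, a log2 difference of -1.68 ± 0.90. The cytokine Tnf was at 92.1 (TG), 48.5 and 31.1 (XC) CPM in the mid libraries and 38.2 (TG) and 21.1 (XC) CPM in the late libraries, a log2 difference of -1.03 ± 0.74. All of these lower cytokine genes were lower in each series and overlapped between groups.

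Ifng, which encodes IFN-γ, was at 196 (TG), 78.5 and 124 (XC) CPM in the mid libraries and 161 (TG) and 90.8 (XC) CPM in the late libraries. It had no shared direction, with a log2 difference of -0.25 ± 1.18. Among the granzymes, Gzmb was at 990.0 (TG), 273 and 945 (XC) CPM in the mid libraries and 1868 (TG) and 749 (XC) CPM in the late libraries and had no shared direction either, because the XC late library lay between the XC mid libraries. Gzma was at 321, 45.2 and 115 CPM in the mid libraries and 336 and 169 CPM in the late libraries and was higher within both series. Gzmk was at 105, 27.5 and 22.2 CPM in the mid libraries and 48.1 and 17 CPM in the late libraries, Gzmm at 27.8, 6.16 and 1.2 CPM in the mid libraries and 1.97 and 0.603 CPM in the late libraries and Gzmc at 6.18, 5.11 and 2.86 CPM in the mid libraries and 5.08 and 2.44 CPM in the late libraries, and each of them was lower within both series. Gzmm had the largest log2 difference of the list after Il2 (-3.14 ± 1.14, unadjusted p = 0.0258 by edgeR). Gzmk had a log2 difference of 0.37 in the fit without the TG mid library, although its differences within the XC series were -0.69 and -0.38.

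Prf1, which encodes perforin, was at 276, 151 and 175 CPM in the mid libraries and 338 and 216 CPM in the late libraries, and Nkg7, a cytotoxic granule protein, at 3423, 1122 and 1264 CPM in the mid libraries and 3775 and 1542 CPM in the late libraries. Both were slightly higher in late libraries of each series. Fasl, the ligand of the death receptor FAS, was at 35.4 (TG), 29 and 31.3 (XC) CPM in the mid libraries and 63.3 (TG) and 46.7 (XC) CPM in the late libraries, with both late libraries above all mid libraries. Il10, an inhibitory cytokine, was low throughout at 1.03, 0.77 and 0.671 CPM in the mid libraries and 1.9 and 2.93 CPM in the late libraries. Csf2 (GM-CSF) was at 10.9, 2.38 and 2.33 CPM in the mid libraries and 9.16 and 10.9 CPM in the late libraries, so that its log2 difference of 1.31 came from the XC series, and in the fit without the XC late library it was -0.54. Srgn and Tnfsf10 (TRAIL) had log2 differences of 0.15 and 0.29.

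The chemokine genes of T cells, which recruit other leukocytes, were mostly lower in late libraries. Of 6 tested, 4 were lower and 0 higher within both series (20.5% and 24.5% of all genes), with a median of -0.80 (-0.54 in the TG series and -1.12 and -1.20 in the XC series, and -1.22 in the fit without the TG late library), and by edgeR none had an unadjusted p under 0.05. Ccl4 was at 1682 (TG), 440.0 and 310.4 (XC) CPM in the mid libraries and 934 (TG) and 109.8 (XC) CPM in the late libraries, Ccl3 at 604, 176 and 203 CPM in the mid libraries and 391 and 108 CPM in the late libraries, and Xcl1, which attracts cross-presenting dendritic cells, at 2349.5, 889.8 and 879 CPM in the mid libraries and 1718 and 309 CPM in the late libraries. Ccl9 was at 11.6, 4.83 and 5.61 CPM in the mid libraries and 5.75 and 1.21 CPM in the late libraries. In each of the 4 the late library was lower within its series, but the TG late library exceeded both XC mid libraries, so the groups overlapped. The log2 difference of Ccl4 was -1.35 ± 1.41 (unadjusted p = 0.368 by edgeR). Over the mid libraries the median of the chemokine list had an SD of 0.76, which also holds the difference between the series.

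Among 21 transcription factors of exhaustion and effector differentiation, 7 were higher and 6 lower within both series (24.5% and 20.5% of all genes) and the median was -0.01. Tox, whose product installs the exhausted chromatin state, was at 50.4 (TG), 149 and 192 (XC) CPM in the mid libraries and 136 (TG) and 266 (XC) CPM in the late libraries. Each late library exceeded the mid libraries of its series, although the TG late library lay below both XC mid libraries, and the log2 difference was 0.95 ± 0.26 (SE, unadjusted p = 0.00593, adjusted p = 0.91 by edgeR). Tox2 had no shared direction at 5.01, 5.04 and 22.1 CPM in the mid libraries and 12.4 and 19.8 CPM in the late libraries. Maf, a factor linked to IL-10 and inhibitory receptor expression, was at 3.19, 1.43 and 1.52 CPM in the mid libraries and 4.16 and 4.99 CPM in the late libraries, without overlap (log2 1.22 ± 0.50, unadjusted p = 0.0391 by edgeR). Ikzf2, which encodes Helios, was at 28.6 (TG), 25 and 31.6 (XC) CPM in the mid libraries and 42.5 (TG) and 59.8 (XC) CPM in the late libraries, with late above all mid libraries.

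Bhlhe40 was at 77.2 (TG), 154 and 255 (XC) CPM in the mid libraries and 183 (TG) and 707 (XC) CPM in the late libraries, a log2 difference of 1.49 ± 1.12, and the XC late library was the highest of the 5. Prdm1, which encodes BLIMP-1, was at 6.4, 6.82 and 16.8 CPM in the mid libraries and 8.95 and 23.3 CPM in the late libraries, Id2 at 173, 176 and 215 CPM in the mid libraries and 226 and 246 CPM in the late libraries and Nfatc1 at 254, 920.1 and 802 CPM in the mid libraries and 445 and 1053 CPM in the late libraries. Each of these was higher in late within both series, and of the 3 only Id2 had no overlap between groups.

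The list also holds early response genes of receptor signalling, Nr4a1 to Nr4a3 and Egr1 to Egr3. A separate list of AP-1 and immediate early genes had 5 higher and 4 lower of 16 within both series (24.5% and 20.5% of all genes). Nr4a1, an orphan nuclear receptor induced rapidly by receptor engagement, was at 337 (TG), 838 and 313 (XC) CPM in the mid libraries and 187 (TG) and 122 (XC) CPM in the late libraries, and both late libraries were below all mid libraries (log2 -1.79 ± 1.12, unadjusted p = 0.151 by edgeR). Nr4a3, of the same family, was at 101 (TG), 247 and 105 (XC) CPM in the mid libraries and 50.7 (TG) and 27.6 (XC) CPM in the late libraries, likewise with no overlap. Nr4a2 was at 168, 296 and 163 CPM in the mid libraries and 183 and 164 CPM in the late libraries, with no shared direction. The XC mid library of day 13 had the highest level of each of these Nr4a and Egr genes.

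Egr3 was at 36.5, 89.1 and 30.6 CPM in the mid libraries and 21.6 and 27.1 CPM in the late libraries and was lower in late libraries without overlap, whereas Egr1 (142, 371 and 197 CPM in the mid libraries and 189 and 217 CPM in the late libraries) and Egr2 (63.4, 106 and 48.2 CPM in the mid libraries and 69.9 and 36.4 CPM in the late libraries) had no shared direction. Irf4, induced by receptor signal strength, was at 126, 217 and 156 CPM in the mid libraries and 126 and 104 CPM in the late libraries, and Tbx21, which encodes T-bet, at 172, 165 and 205 CPM in the mid libraries and 159.7 and 100.4 CPM in the late libraries. Both were lower in late libraries without overlap, although the TG late library of Irf4 was level with TG mid. Tbx21 in the fit without the XC late library had a log2 difference of 0.09, while its difference within the TG series was -0.11. Zeb2 was at 7.02, 20.2 and 13.2 CPM in the mid libraries and 6.73 and 8.99 CPM in the late libraries, lower within both series. Eomes, Batf, Rbpj and Runx3 had log2 differences of -0.01, 0.23, 0.29 and -0.10 and no shared direction.

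Genes of naive and stem-like T cells split in direction. Of 20 tested, 3 were higher and 2 lower within both series, shares under the 24.5% and 20.5% of all genes, and the median was -0.11 (-0.06 in the TG series and -0.40 and 0.15 in the XC series). The reference mattered here, since without the XC mid library of day 14 the count of lower genes was 11 and without that of day 13 it was 2. Tcf7, which encodes TCF-1, was at 559 (TG), 979 and 817 (XC) CPM in the mid libraries and 625 (TG) and 787 (XC) CPM in the late libraries, a log2 difference of -0.03 ± 0.38 (SE) with overlapping groups. Slamf6, a receptor that marks stem-like exhausted cells, was at 326 (TG), 399.8 and 356 (XC) CPM in the mid libraries and 498 (TG) and 538 (XC) CPM in the late libraries, with late above all mid libraries and mid above the controls (203 to 244 CPM). Its log2 difference was 0.52 ± 0.25 (unadjusted p = 0.0624 by edgeR). Satb1, a chromatin organizer, was at 115 (TG), 354 and 145 (XC) CPM in the mid libraries and 69.4 (TG) and 110.0 (XC) CPM in the late libraries, below all mid libraries, with 700.3 to 851 CPM in controls (log2 -1.06 ± 0.54, unadjusted p = 0.0827 by edgeR).

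Foxo1, which drives the homing and survival genes of resting T cells, was at 111, 193 and 169 CPM in the mid libraries and 100.1 and 148 CPM in the late libraries and was lower within both series. Myb was at 31.3, 127 and 86.4 CPM in the mid libraries and 47.3 and 182 CPM in the late libraries and Bcl2 at 88.7, 158 and 147 CPM in the mid libraries and 109 and 203 CPM in the late libraries, higher within both series. The log2 difference of Myb was -0.11 in the fit without the XC late library, although the difference within the TG series was 0.60. Among the receptors of lymph node homing and survival, Ccr7 was at 533, 575 and 366 CPM in the mid libraries and 495 and 547 CPM in the late libraries and Il7r at 31.6, 161 and 48 CPM in the mid libraries and 32.9 and 108 CPM in the late libraries. Both overlapped between groups and had log2 differences of 0.07 and -0.04.

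S1pr1, the exit receptor, was at 46.6, 229 and 103 CPM in the mid libraries and 31.1 and 108 CPM in the late libraries, and Il6ra at 25, 65.3 and 19 CPM in the mid libraries and 11.4 and 21.1 CPM in the late libraries. Their log2 differences of -0.68 ± 0.62 and -1.06 ± 0.68 had no shared direction, as the XC late library lay just above the XC mid library of day 14. Lef1, Foxp1, Klf2, Bach2, Cxcr5, Cd27, Id3, Dapl1 and Ikzf1 had log2 differences of -0.17, -0.23, -0.18, -0.11, -0.35, -0.10, -0.18, -0.11 and -0.09. For none of these 9 did both series share a direction.

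Costimulatory receptors were higher in 6 and lower in 2 of 10 cases within both series (24.5% and 20.5% of all genes), with a median of 0.37 (0.51 in the TG series and 0.06 and 0.17 in the XC series). In the fit it was 0.048 without the TG late library and 0.24 without the TG mid library. Tnfrsf18, which encodes GITR and shares 21.9% of its 31-base words with other genes, was at 197 (TG), 107 and 116 (XC) CPM in the mid libraries and 311 (TG) and 219.7 (XC) CPM in the late libraries. Both late libraries exceeded all mid libraries by a log2 difference with a small error, 0.84 ± 0.20 (unadjusted p = 0.00206, adjusted p = 0.91 by edgeR). Tnfrsf4, which encodes OX40, was at 197 (TG), 43.5 and 71.1 (XC) CPM in the mid libraries and 324 (TG) and 183 (XC) CPM in the late libraries, higher within each series by 0.72 (TG), 2.07 and 1.36 (XC) in log2 CPM. Tnfrsf9, which encodes 4-1BB, was at 479, 474 and 396 CPM in the mid libraries and 872 and 475 CPM in the late libraries, where the XC late library was level with that of day 13, and Tnfrsf1b at 132, 290.3 and 350.1 CPM in the mid libraries and 253 and 439 CPM in the late libraries.

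NK-type receptors were higher in 5 and lower in 0 of 10 cases within both series (24.5% and 20.5% of all genes), and in 5 and 1 without the XC mid library of day 14. The median was 0.57 (0.89 in the TG series and 0.26 and 0.49 in the XC series), and in the fit it was 0.16 without the TG mid library, 0.25 without the XC late library and 0.86 without the XC mid library of day 13. Klrk1, which encodes the activating receptor NKG2D, was at 131 (TG), 155 and 149 (XC) CPM in the mid libraries and 212 (TG) and 223 (XC) CPM in the late libraries, with late above all mid libraries. Fcer1g, the signalling adaptor of Fc and NK receptors, was at 8.77 (TG), 0.56 and 3.56 (XC) CPM in the mid libraries and 23.7 (TG) and 34.1 (XC) CPM in the late libraries, a log2 difference of 3.37 ± 1.58. This adaptor is also a myeloid gene, and its controls ranged over 0.319 to 126 CPM. Of the 16 macrophage and monocyte markers, 11 were higher in late libraries within both series (24.5% of all tested genes), among them Lyz2, and some of the 11 were under 1 CPM throughout. Ccr2 of that list was lower, and the summed markers in the TG series were 66.6 CPM in mid and 62.7 CPM in late. The part of myeloid cells in Fcer1g was not tested. Klrc1 (NKG2A) was at 60.1, 96.4 and 152 CPM in the mid libraries and 128 and 186 CPM in the late libraries and Klrb1c at 1.93, 3.71 and 2.01 CPM in the mid libraries and 5.02 and 5.51 CPM in the late libraries, though 53.1% and 21.2% of their 31-base words occur in other genes.

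Of 16 T cell identity genes 5 were higher and 2 lower within both series (24.5% and 20.5% of all genes). Cd3e was at 873, 1106 and 1050.2 CPM in the mid libraries and 1296 and 1352 CPM in the late libraries and Cd3g at 899.6, 508 and 562 CPM in the mid libraries and 1406 and 752 CPM in the late libraries, with unadjusted p of 0.0431 and 0.0248 by edgeR. Cd3d was at 822, 498 and 453 CPM in the mid libraries and 1137 and 554 CPM in the late libraries and Zap70, the kinase that binds the CD3 chains, at 338, 348 and 287 CPM in the mid libraries and 435 and 364 CPM in the late libraries. Ptprc, which encodes CD45, was lower, at 937, 1545 and 1120.4 CPM in the mid libraries and 636 and 1083 CPM in the late libraries. Of 16 negative regulators of receptor signalling, 5 were higher and 2 lower (5 and 4 without the XC mid library of day 14). The E3 ligase Rnf128 (GRAIL), known from anergic T cells, was at 3.36 (TG), 4.44 and 5.29 (XC) CPM in the mid libraries and 5.71 (TG) and 15 (XC) CPM in the late libraries, above all mid libraries in both late libraries (log2 1.27 ± 0.39, unadjusted p = 0.0106 by edgeR), and Dgkz, a diacylglycerol kinase, was at 298, 552 and 548 CPM in the mid libraries and 393 and 697 CPM in the late libraries.

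Homing receptors and integrins went both ways, with 5 of 18 higher and 4 lower within both series (24.5% and 20.5% of all genes). Their median was -0.13 (0.66 in the TG series and -0.23 and -0.38 in the XC series), which was -0.32 in the fit without the TG mid library and 0.19 without the XC mid library of day 14. Cx3cr1, the fractalkine receptor, was at 2.96 (TG), 7.91 and 8.43 (XC) CPM in the mid libraries and 18.3 (TG) and 36.6 (XC) CPM in the late libraries, and both late libraries exceeded all mid libraries (log2 2.23 ± 1.12, unadjusted p = 0.0842 by edgeR). Itga4, the α4 chain of VLA-4, was at 288 (TG), 301 and 307 (XC) CPM in the mid libraries and 146 (TG) and 230.1 (XC) CPM in the late libraries, below all mid libraries in both late libraries (log2 -0.65 ± 0.20, unadjusted p = 0.0101, adjusted p = 0.91 by edgeR). Itgae, which encodes CD103, was at 11.8, 36.5 and 18.9 CPM in the mid libraries and 7.22 and 7.89 CPM in the late libraries and Ccr2 at 18.2, 5.28 and 5.86 CPM in the mid libraries and 3.95 and 2.58 CPM in the late libraries, both without overlap. Cxcr3 was at 300.2, 104 and 220.1 CPM in the mid libraries and 208 and 53 CPM in the late libraries, lower within both series.

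Of 16 cytokine receptor genes, 4 were higher and 5 lower within both series (24.5% and 20.5% of all genes). Il12rb2, the signalling chain of the IL-12 receptor, was at 1.31, 5.14 and 11.4 CPM in the mid libraries and 3.95 and 15.4 CPM in the late libraries, and 38.6% of its 31-base words are shared with other genes. Il18r1 was at 35.6, 80.3 and 94.5 CPM in the mid libraries and 70.7 and 122 CPM in the late libraries, and the TGF-β receptor gene Tgfbr1 at 7.14, 17.4 and 17.6 CPM in the mid libraries and 4.79 and 11 CPM in the late libraries. Their unadjusted p were 0.0381, 0.0546 and 0.0213 by edgeR, in the order given. All 3 overlapped between groups.

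BCL2-family genes, which set the threshold of mitochondrial cell death, were higher in 9 and lower in 1 of 14 cases within both series (24.5% and 20.5% of all genes), with a median of 0.35 (0.33 in the TG series and 0.52 and 0.15 in the XC series). In the fit it was 0.18 without the TG mid library and 0.21 without the XC late library. The counts were 9 and 1 without the XC mid library of day 13, and 10 and 2 without that of day 14. The members with the largest differences were pro-apoptotic BH3-only genes. Bcl2l11, which encodes BIM, was at 70.8 (TG), 121 and 152 (XC) CPM in the mid libraries and 155 (TG) and 192 (XC) CPM in the late libraries, and Bbc3, which encodes PUMA, at 6.54 (TG), 11.7 and 6.21 (XC) CPM in the mid libraries and 12.9 (TG) and 19.5 (XC) CPM in the late libraries. Both late libraries lay above all mid libraries for each, with log2 differences of 0.72 ± 0.29 (unadjusted p = 0.0356 by edgeR) and 1.06 ± 0.31 (unadjusted p = 0.0073 by edgeR). Bmf, a further BH3-only gene, was low at 0.79, 1.22 and 2.15 CPM in the mid libraries and 2.15 and 4.36 CPM in the late libraries.

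Interferon-stimulated genes were mostly lower in late libraries. These genes are switched on by type I and type II interferons through STAT complexes and IRF factors, and many encode antiviral proteins. Of 37 tested, 23 were lower and 2 higher within both series (20.5% and 24.5% of all genes), the median log2 difference was -0.43 (-0.15 in the TG series and -0.56 and -0.44 in the XC series), and 5 were lower and 0 higher at an unadjusted p under 0.05 by edgeR. The 5 genes were Ifit3, Mx1, Oas2, Oas3 and Ly6a. The lower count was 23 without the XC mid library of day 13 and 25 without that of day 14. In the TG series alone the median was closer to 0 than in the XC series. Over the mid libraries the median of this list had an SD of 0.46, which also holds the difference between the series. In 9 genes both late libraries lay below all mid libraries and in 1 above (7.03% and 7.72% of all genes).

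Mx1, an interferon-induced gene of the dynamin-like GTPase family, was at 7.31 (TG), 14 and 15.7 (XC) CPM in the mid libraries and 4.48 (TG) and 4.99 (XC) CPM in the late libraries, with a log2 difference of -1.31 ± 0.40 (SE, unadjusted p = 0.0099, adjusted p = 0.91 by edgeR). Both late libraries lay below all mid libraries and below the controls (8.43 to 11 CPM). Ifit3, which binds viral RNA complexes with other IFIT proteins, was at 8.0 (TG), 29.7 and 16 (XC) CPM in the mid libraries and 4.31 (TG) and 7.46 (XC) CPM in the late libraries, against 37.6 to 56.6 CPM in controls (log2 -1.42 ± 0.59). Late levels again lay below all mid levels, and mid below control. Ifit1 was at 5.88, 24.5 and 20.5 CPM in the mid libraries and 3.6 and 9.02 CPM in the late libraries.

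Oas2 and Oas3, which make the activator of RNase L, were at 1.21, 4.41 and 1.02 CPM in the mid libraries and 0.23 and 0.247 CPM in the late libraries and at 21.7, 42.5 and 72 CPM in the mid libraries and 10.4 and 28.8 CPM in the late libraries. Oas2 was low and did not overlap between groups, and Oas3 overlapped. Usp18, which removes ISG15 from proteins and damps interferon receptor signalling, was at 20.5 (TG), 40.4 and 27.9 (XC) CPM in the mid libraries and 10.8 (TG) and 15.7 (XC) CPM in the late libraries, without overlap. Ly6a, which encodes Sca-1, was at 479 (TG), 104 and 171 (XC) CPM in the mid libraries and 195 (TG) and 52.3 (XC) CPM in the late libraries, where the TG series was higher throughout. The 2 higher genes were Gbp3 and Ifi27l2a, the latter at 513, 295 and 468 CPM in the mid libraries and 604 and 514 CPM in the late libraries. Of the leading lower genes outside the list, Tgtp1, an interferon-inducible GTPase of T cells, was at 28.1 (TG), 99.2 and 30.2 (XC) CPM in the mid libraries and 8.93 (TG) and 13.7 (XC) CPM in the late libraries (log2 -2.03 ± 0.74) and Ifi208, of the PYHIN family, at 17.6 (TG), 48.6 and 37.7 (XC) CPM in the mid libraries and 11.1 (TG) and 11.4 (XC) CPM in the late libraries (log2 -1.46 ± 0.53). Both were lower without overlap. Tgtp1 shares 84.4% of its 31-base words with other genes, mainly Tgtp2, Ifit3 61.8%, mainly Ifit3b, Ifi208 34.6% and Ly6a 31.9%.

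The DNA element through which interferon acts at many of these genes has a core of GAAA, any 2 bases and GAAA again. The promoter table from RefSeq (GRCm38.p6) held 27 of the 37 genes, and 16 of them (59.3%) had this core on either strand within the 250 bases before a start site, against 3.46% of the 27025 genes in the table. The core was in 10 of the 17 genes that were lower within both series (58.8%) and in 6 of the 10 that were not (60.0%). Of the 15 lowest genes, 11 were in the table and 3 held the core. These 3 are shown because they are leading lower genes whose promoter carries the core. The 250 bases before the start are printed in the direction of the gene, with the core in capitals, for Ifit3 (chr19:34583279-34583528, plus strand), Ifi208 (chr1:173673415-173673664, plus strand) and Tgtp1 (chr11:48992247-48992496, minus strand). A match is a description of the letters and not a measured binding site.
Ifit3: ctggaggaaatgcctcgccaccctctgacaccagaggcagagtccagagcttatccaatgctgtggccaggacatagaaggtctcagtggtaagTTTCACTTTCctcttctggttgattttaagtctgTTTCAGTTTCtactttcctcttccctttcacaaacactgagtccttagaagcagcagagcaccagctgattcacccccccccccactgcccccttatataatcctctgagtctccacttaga
Ifi208: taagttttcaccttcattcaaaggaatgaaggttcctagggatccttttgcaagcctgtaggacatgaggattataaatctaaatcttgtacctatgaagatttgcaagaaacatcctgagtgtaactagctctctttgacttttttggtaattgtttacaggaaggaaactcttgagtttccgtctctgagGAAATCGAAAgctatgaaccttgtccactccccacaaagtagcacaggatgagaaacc
Tgtp1: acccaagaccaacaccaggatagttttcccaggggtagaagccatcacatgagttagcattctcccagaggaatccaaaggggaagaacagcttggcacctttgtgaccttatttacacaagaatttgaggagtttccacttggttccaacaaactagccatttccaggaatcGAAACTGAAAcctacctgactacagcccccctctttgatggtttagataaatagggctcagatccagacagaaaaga
In Ifit3 there were 2 matches, both in the reverse direction, which begin 156 and 122 bases before the start. Ifi208 and Tgtp1 had 1 match each, 58 and 77 bases before the start. None of the 10 highest genes found in the table held the core.

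**Figure D4:**
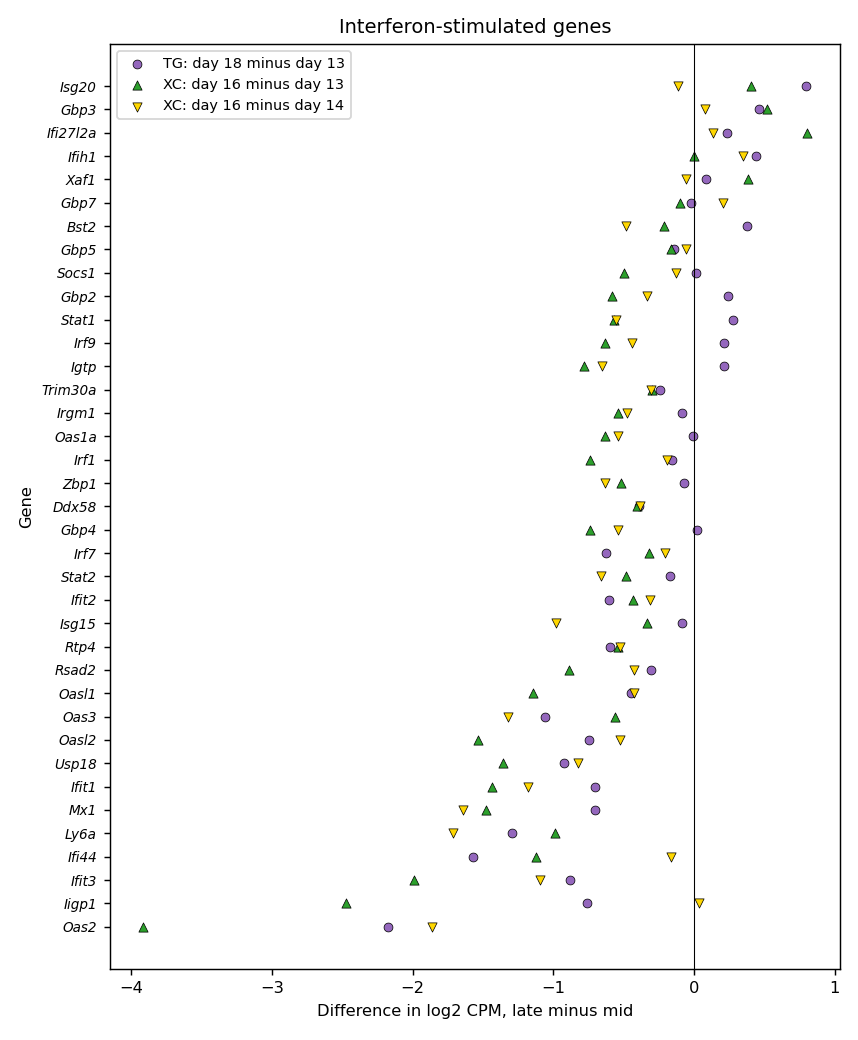
Difference in log2 CPM (x axis) between the late library and each mid library of its series for the 37 interferon-stimulated genes tested (y axis, ordered by the fitted difference). Circles are the TG series and triangles the XC series against day 13 and day 14. Most symbols lie left of 0, with Oas2 among the lowest against the XC mid library of day 13 and Gbp3 and Ifi27l2a to the right in all 3 differences.

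Proliferation genes depended on the series. Of 40 genes of mitosis and the spindle, 19 were higher and 1 lower in late libraries within both series (24.5% and 20.5% of all genes), but the median was -0.04 in the TG series and 1.14 and 0.27 in the XC series, so that the difference was largest against the XC mid library of day 13. Mad2l1, of the spindle checkpoint, was at 101 (TG), 37.7 and 80 (XC) CPM in the mid libraries and 131 (TG) and 105 (XC) CPM in the late libraries, and the checkpoint kinase gene Bub1b at 97.1 (TG), 56.9 and 119.9 (XC) CPM in the mid libraries and 121 (TG) and 132 (XC) CPM in the late libraries. In both, late libraries lay above all mid libraries, and the XC mid library of day 13 was the lowest. Of 41 DNA replication genes 8 were higher and 0 lower, and without the XC mid library of day 14 29 were higher, whereas without that of day 13 8 were higher and 10 lower. Rfc5, of the clamp loader, was at 132, 74.9 and 143 CPM in the mid libraries and 195 and 144 CPM in the late libraries.

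Many ribosomal protein and oxidative phosphorylation genes were higher by small amounts, and the proteasome genes were nearer to the share of all genes. Of 77 cytosolic ribosomal protein genes 50 were higher and 3 lower within both series (24.5% and 20.5% of all genes), with a median of 0.23 (0.086 without the TG late library and 0.39 without the XC late library), and 70 were higher without the XC mid library of day 13. Rps6 was at 699.6, 719.7 and 688 CPM in the mid libraries and 1194 and 827 CPM in the late libraries and Rpl32 at 1357, 997 and 947 CPM in the mid libraries and 1870.5 and 1269 CPM in the late libraries, though 45% and 44.9% of their 31-base words occur in other genes. Of 59 nuclear genes of oxidative phosphorylation 35 were higher and 0 lower, with a median of 0.18 (0.08 without the XC mid library of day 13, 0.088 without the TG late library, 0.32 without the XC late library and 0.38 without the TG mid library) and Cox4i1 at 497, 348 and 393 CPM in the mid libraries and 768 and 459.7 CPM in the late libraries. Of 36 proteasome genes 11 (30.6%) were higher and 0 lower (25 and 0 without the XC mid library of day 14, 12 and 4 without that of day 13), and the subunit with the largest difference was Psmb8, an interferon-inducible subunit of the immunoproteasome, at 696 (TG), 528 and 671 (XC) CPM in the mid libraries and 1366 (TG) and 832 (XC) CPM in the late libraries. Both late libraries exceeded all mid libraries there (log2 0.74 ± 0.24, unadjusted p = 0.013 by edgeR).

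Glycolysis genes were higher in 11 and lower in 2 of 19 cases (24.5% and 20.5% of all genes), with a median of 0.25 (0.45 in the TG series and 0.10 and 0.13 in the XC series). In the fit it was 0.13 without the TG late library, 0.44 without the XC late library and 0.42 without a series term. Tpi1 was at 1027 (TG), 766 and 724 (XC) CPM in the mid libraries and 1679.5 (TG) and 1080.4 (XC) CPM in the late libraries, Eno1 at 2549, 2233 and 2182 CPM in the mid libraries and 3630.0 and 2646 CPM in the late libraries and Pkm at 2429, 2023 and 2247 CPM in the mid libraries and 3646 and 2447 CPM in the late libraries. For these 3 enzymes both late libraries were above all mid libraries. Gapdh was at 3615, 1288 and 1657 CPM in the mid libraries and 4626 and 2003 CPM in the late libraries, higher within both series. Of their 31-base words, 28.5% in Eno1, 34.7% in Pkm and 28.1% in Gapdh occur in other genes. Slc16a3, the lactate exporter MCT4, was at 47.2, 74.4 and 51.1 CPM in the mid libraries and 75.4 and 89.5 CPM in the late libraries. Of 17 hypoxia genes, 6 were higher and 0 lower (24.5% and 20.5% of all genes), with 6 and 3 without the XC mid library of day 14 and 9 and 0 without that of day 13. Among the higher was Ddit4, an inhibitor of mTORC1, at 8.44, 45.9 and 53.5 CPM in the mid libraries and 19.5 and 103 CPM in the late libraries (unadjusted p = 0.0342 by edgeR).

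**Figure D5:**
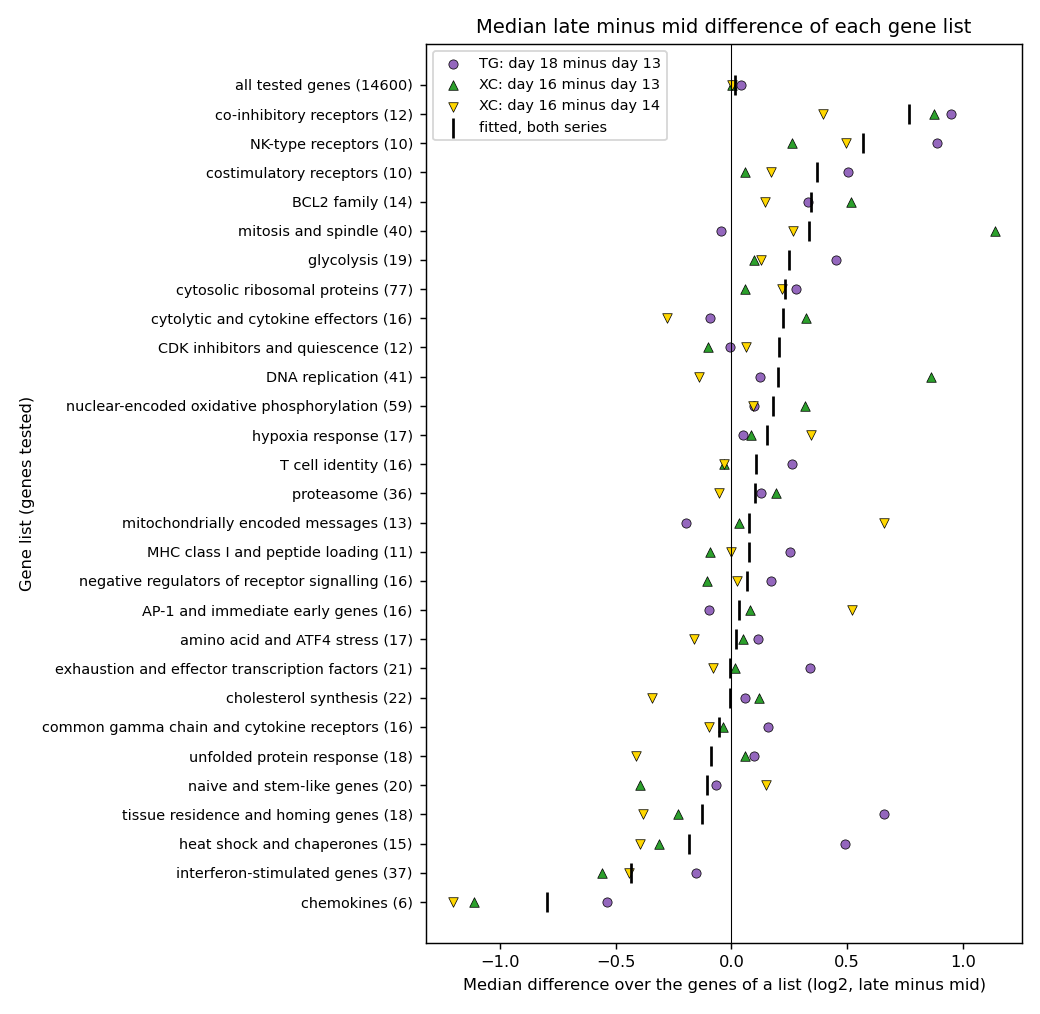
Median late minus mid difference in log2 units (x axis) of all tested genes and of 28 gene lists (y axis, number of genes tested in brackets). Circles are the TG series, triangles the XC series against day 13 and day 14, and bars the fit over both series. The co-inhibitory receptors are highest at 0.77 and the chemokines lowest at -0.80 in the fit, and the 3 differences of a list often spread as far as its distance from 0.

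DESeq2 also called genes whose mean level was too low for the leading genes above. Arg1, which encodes arginase 1 and is known from macrophages and hepatocytes, was at 1.68 (TG), 0.315 and 0.6 (XC) CPM in the mid libraries and 16.4 (TG) and 25.7 (XC) CPM in the late libraries. Both late libraries lay above all mid libraries (log2 4.72 ± 0.61, adjusted p = 0.449 by edgeR and 2.19e-11 by DESeq2). Cpa3, a carboxypeptidase of mast cells, was at 1.39 (TG), 0.035 and 0.176 (XC) CPM in the mid libraries and 8.49 (TG) and 35.3 (XC) CPM in the late libraries, and Il9r, the IL-9 receptor, at 0.42 (TG), 0.245 and 0.741 (XC) CPM in the mid libraries and 2.91 (TG) and 7.62 (XC) CPM in the late libraries. The mast cell gene Ms4a2 was at 0.0168, 0 and 0.0706 CPM in the mid libraries and 0 and 0 CPM in the late libraries and Mcpt4 at 0, 0 and 0 CPM in the mid libraries and 0 and 0 CPM in the late libraries. Kit and Cma1, also expressed by mast cells, were detected. Kit was at 0.084, 0.245 and 3.85 CPM in mid and 0.376 and 1.4 CPM in late libraries. Cma1 was at 0.387, 0 and 0.141 CPM in mid and 0.356 and 0.0822 CPM in late libraries. Hp, haptoglobin, a hepatocyte marker, was at 17.7, 1.05 and 0.6 CPM in the mid libraries and 35.8 and 20.2 CPM in the late libraries and was also called. These genes were chosen after their values were seen. The hepatocyte sum was higher in late libraries within both series, and the part of other cells in them was not tested.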

How the data were processed

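Low-input RNA-seq of FACS-sorted TCRTg101 was quantified by the authors with kallisto (version not given in the sources used here), and the deposited tables hold estimated counts and TPM per transcript (GRCm38) for each sequencing run. Deposited estimated counts were summed per gene (GENCODE vM21, 35865 genes, 98.2% of transcripts matched) and over the runs of a library, then rounded. Deposited TPM served only an alternative. Genes with at least 10 counts in 6 of 11 low-input libraries were kept (14600), after the study's filter. Late was compared with mid in edgeR 4.0.16 (TMM, robust quasi-likelihood F test, two-sided, Benjamini-Hochberg) with group and title series as terms, and the SE is the log2 difference divided by the root of F. Controls, undivided, early, mid and late libraries shared the estimate of spread. DESeq2 1.42.0 was the alternative tool. Genes named are the members of 4 lists (co-inhibitory receptors, effectors, transcription factors, naive genes), except 1 that is not reported here, up to 6 of other lists, and the 15 highest and 15 lowest genes defined above. Members and lists were chosen with earlier results of these data known. Other groups of the series are not used here.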

Additional observations from a re-analysis of the deposited data

Results flagged for a closer look

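One gene differed between the series by the interaction test. Morf4l1-ps1, annotated as a pseudogene, had a late minus mid log2 difference that was 12.15 higher in the TG than in the XC series in edgeR's fit (adjusted p = 0.0175 by the quasi-likelihood test with Benjamini-Hochberg adjustment). It was at 0, 61.5 and 60.8 CPM in the mid libraries and 18.2 and 81.9 CPM in the late libraries, so the difference came from 1 library at 0, and the fitted size depends on the prior count. By DESeq2 10 genes passed the same test, and by edgeR without the early libraries 6 did. The test for single outlying libraries needs at least 4 samples in a group, so it could not be run on 2 late and 3 mid libraries.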

How the results depend on the processing

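The direction of the 15 highest and 15 lowest genes was kept under each alternative run that tested them, while the number of calls was not. These genes were chosen for a shared direction in the same libraries, which favours that outcome. At an adjusted p under 0.05, edgeR called 0 genes and DESeq2 23 higher and 9 lower. With mid and late libraries only, edgeR called 5 higher, Serpina3g, Penk, Cx3cr1, Gm156 and Gm10800, which were named after their values were seen. Without a filter on low counts it called 270 higher and 164 lower, of which 290 were among the 14600 genes and had the same sign as reported. DESeq2, chosen after the data were seen, called 246 and 117 on mid and late libraries only and 72 and 80 without the early libraries. At an unadjusted p under 0.05, against 386 higher and 394 lower, edgeR gave 219 and 237 without a series term, 975 and 627 with mid and late only, 1041 and 784 without a filter, 900 higher with day as a number and 758 lower without the early libraries, and DESeq2 gave 952 and 680 on mid and late only and 621 and 643 without early. Leaving out 1 library at a time gave 132 to 341 higher and 174 to 405 lower. The count of higher genes was 219 without the XC mid library of day 13 and 132 without the XC late library, and that of lower genes was 174 without the former and 222 without the TG late library. Without 1 late library, the other was taken to vary like the remaining groups. The series difference was called for 10 genes by DESeq2 and 6 without early libraries. Without one XC mid library, 233 to 313 genes were at least 2-fold higher and 159 to 242 lower within both series, the larger counts without day 14. The causes were not tested.

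List medians moved beyond the replicate SD when 1 library was left out, over 0.45 (without the XC late library) to 1.06 (without the XC mid library of day 14) for co-inhibitory receptors, 0.048 to 0.43 for costimulatory receptors, 0.16 to 0.86 for NK-type receptors, 0.18 to 0.38 for the BCL2 family, 0.13 to 0.44 for glycolysis, 0.013 to 0.23 for MHC class I, -0.059 to 0.25 for CDK inhibitors, -0.72 to 0.65 for AP-1 genes and -0.31 to 0.0016 for heat shock genes. That SD was taken over the list medians of the mid libraries and also holds the difference between the series. It was 0.14 for co-inhibitory receptors, 0.46 for interferon-stimulated genes and 0.76 for chemokines. A list with a large SD could move further without being named here. NK-type receptors were at 0.71 with mid and late only, and without a series term CDK inhibitors were at 0.14 and glycolysis at 0.42. Signs of small differences turned when 1 library was left out, with ranges of -0.29 to 0.10 (Bach2), -0.10 to 0.23 (Ccr7), -0.22 to 0.16 (Cd27), -0.54 to 2.33 (Csf2), -0.24 to 1.58 (Ctla4), -0.89 to 0.24 (Cxcr5), -0.41 to 0.23 (Dapl1), -0.34 to 0.28 (Egr1), -1.07 to 0.14 (Egr2), -0.68 to 0.57 (Eomes), -1.01 to 0.37 (Gzmk), -1.23 to 0.68 (Id3), -0.043 to 0.55 (Ifi27l2a), -0.21 to 0.0043 (Ikzf1), -0.49 to 0.68 (Il7r), -0.45 to 0.076 (Klf2), -0.35 to 0.058 (Lef1), -1.23 to 0.077 (Lilrb4a), -0.11 to 1.03 (Myb), -0.62 to 0.062 (Nr4a2), -0.26 to 0.032 (Runx3), -0.053 to 0.33 (Srgn), -0.99 to 0.091 (Tbx21), -0.17 to 0.13 (Tcf7), -0.0049 to 1.09 (Tnfrsf9) and -0.37 to 0.0082 (Vsir). Without the TG mid library or 1 late library, 1 group holds 1 series only. The series term then comes from the controls and the remaining time point. The fitted difference can then depart in sign from those within a series, as it did for Ctla4, Myb, Gzmk and Tbx21. Lilrb4a was at 0.14 with mid and late only, 0.13 by DESeq2 there and 0.081 with day as a number, where Ccr7 was at -0.012. Il7r was at 0.051 with mid and late only by edgeR and at 0.050 by DESeq2, and Cd27, Id3 and Dapl1 were at 0.039, 0.12 and 0.0093 without a series term. No paired analysis was possible because the labels give no replicate numbers that link mid and late libraries, and the series term stands in the model instead.

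With 2 late and 3 mid libraries, 1 late library decides each series, and day 16 and day 18 cannot be told apart from the series.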

Other observations

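Stress and housekeeping genes not described above split in direction. Of 18 genes of the unfolded protein response 0 were higher and 3 lower within both series (24.5% and 20.5% of all tested genes), of 15 heat shock and chaperone genes 1 was higher and 3 lower, and of 17 amino acid and ATF4 stress genes 2 were higher and 3 lower. In the latter, Asns, which makes asparagine, was at 74.7, 42.7 and 87.8 CPM in the mid libraries and 134 and 117 CPM in the late libraries, and Trib3 at 19.3, 15.2 and 20.8 CPM in the mid libraries and 12.9 and 8.63 CPM in the late libraries, in opposite directions and without overlap. Of 22 cholesterol synthesis genes 4 were higher and 5 lower, with Hsd17b7 at 10.0, 10.7 and 12.1 CPM in the mid libraries and 7.38 and 6.63 CPM in the late libraries. Of 11 genes of MHC class I and peptide loading 4 were higher and 2 lower, and of 13 mitochondrially encoded messages 3 were higher and 1 lower. Without the XC mid library of day 14 the unfolded protein response had 8 higher and 4 lower, the ATF4 genes 8 and 3, cholesterol synthesis 11 and 5 and the mitochondrial messages 3 and 5, and without that of day 13 the unfolded protein response had 0 and 7, the ATF4 genes 2 and 5 and cholesterol synthesis 4 and 9.

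Of the AP-1 and immediate early genes, Junb was at 339.7, 789 and 651 CPM in the mid libraries and 484 and 1409.8 CPM in the late libraries and Fosl1 (of whose 31-base words 54.5% occur in other genes) at 21.7, 11.7 and 4.41 CPM in the mid libraries and 5.48 and 0.439 CPM in the late libraries, with the XC late library at the top for the former and at the bottom for the latter. Of 12 CDK inhibitor and quiescence genes 2 were higher and 1 lower (24.5% and 20.5% of all genes). The counts were 4 and 2 without the XC mid library of day 13, and 2 and 3 without that of day 14. Cdkn2c (p18) was at 28.7, 14.9 and 18.6 CPM in the mid libraries and 35.6 and 31.9 CPM in the late libraries, above all mid libraries in both late libraries.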
